A study of Homo sapiens with 48 samples.

Results

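UPF2, UPF3A and UPF3B encode the partners through which the RNA helicase UPF1 is tied to the exon junction complex in nonsense-mediated mRNA decay (NMD). Their RNA was followed in human cells that received a control siRNA or one against UPF1, with or without a transgene for wild-type or mutant UPF1. The 3 genes were taken by name from a table of 58870 genes, and all 3 were among the 16697 genes with enough counts to be tested. They were chosen by their role and by the level of UPF3B, which was lower in 1 mutant line, E797R, than in the wild-type line with either siRNA, so the values of that comparison are given as a description with no test. The rise of UPF3B after UPF1 depletion was also known when the genes were chosen and is not independent support for anything here.

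The cells were Flp-In 293 T-REx, a human embryonic kidney line with 1 recombination site into which a transgene can be inserted, and RNA was read by sequencing of total RNA cleared of ribosomal RNA. The 8 stable lines carried the CLIP protein tag alone (CLIP), CLIP-tagged wild-type UPF1 (WT), or 1 of 6 CLIP-tagged UPF1 mutants. These are F192E, I757R and E797R, named by an amino acid change, and FE-ER, IR-ER and LECY, whose names the labels do not spell out. Each line received either a control siRNA without a target (siNT) or one that targets UPF1 (siUPF1), at 40 nM for 72 h in 3 replicates, which gave 16 groups and 48 libraries. All lines kept their own UPF1 gene, reads of the transgene and of that gene were summed at UPF1, and whether a line is 1 clone is not given in the sources used here.

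NMD removes mRNAs whose stop codon lies in a context the cell reads as premature, often upstream of an exon junction complex, the protein mark left on mRNA at spliced junctions. UPF2 is the scaffold that binds UPF1 on one side and a UPF3 protein on the other, and UPF3B binds the exon junction complex and so links it to UPF2. UPF3A is the paralog of UPF3B and also binds UPF2. UPF3B lies on the X chromosome and its loss causes an inherited intellectual disability in people. Transcripts of several NMD factors are themselves NMD targets, by features such as a long 3′ UTR or upstream reading frames.

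UPF2 spans chr10:11920022-12043170 on the minus strand, UPF3A chr13:114281584-114305817 on the plus strand, and UPF3B chrX:119805311-119852998 on the minus strand (hg38, GENCODE 29). GENCODE 29 annotates 4 transcripts of UPF2, 12 of UPF3A and 5 of UPF3B, and 0 of each as NMD targets. After the stop codon, the transcript UPF2-203 has 1275 bases of 3′ UTR, UPF3A-202 has 900 and UPF3B-201 has 856, with 0 exon junctions there. UPF3B-204 and UPF3B-205, which are also annotated as coding, have 1 exon junction each after the stop codon, and no other coding transcript of the 3 genes has any. The 5′ UTR of UPF2-203 has 275 bases and holds 4 ATG triplets, that of UPF2-202 holds 1 and that of UPF2-201 holds 13, and those of UPF3A-202 and UPF3B-201 have 56 and 70 bases and hold 0. The counts are per gene and do not tell these transcripts apart. The longest stretch that UPF3A-202 and UPF3B-201 share exactly is 16 bases of coding sequence, shown in capitals below with its flanks, because it bears on whether reads can be assigned to the right paralog:
UPF3A-202, positions 561 to 600: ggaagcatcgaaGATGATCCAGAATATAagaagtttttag
UPF3B-201, positions 524 to 563: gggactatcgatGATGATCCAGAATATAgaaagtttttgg
Of all 50-base windows in the UPF3A transcripts, 0 were found in UPF3B, and the same held in reverse, so the annotated paralogs share no exact match of that length. UPF3A had near copies elsewhere. Of its 6075 windows, 17.1% were found in another gene, mainly the pseudogenes UPF3AP2 (13.8%) and UPF3AP1 (11.3%), while UPF2 and UPF3B had 0%. In the table UPF3A counts were not whole numbers in all 48 libraries, those of UPF2 in 5 and those of UPF3B in 2, so UPF3A is the least certain of the 3.

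The sequences at the gene starts are shown as a description, since both paralogs carry the same 8-letter motif. Whether it bears on the response was not tested. The stretches are from RefSeq (GRCh38.p14), written 5′ to 3′ on the strand of the gene, with the motif in capitals:
UPF2, chr10:12043261-12043290, minus strand: cgaagcgccTGCGCCTGCGCAgctccaatt
UPF3A, chr13:114281577-114281606, plus strand: gcggccgagctCTCGCGAGgtttcgtcggg
UPF3B, chrX:119853065-119853094, minus strand: aaggcccaagtCTCGCGAGagcttggcagg
CTCGCGAG lay 13 to 6 bases before the RefSeq start of UPF3A and 120 to 113 bases before that of UPF3B, and it was found in 1.06% of 27305 promoters of 300 bases, 1 per gene, when both strands were searched. GENCODE 29 starts UPF3A 17 bases and UPF3B 35 bases before the RefSeq start, so by that annotation the UPF3A match lies within the first exon. UPF2 held no such match but had the motif named for the factor NRF1, found in 1.02% of promoters, 111 to 100 bases before its start. CCAAT was present in UPF2 and UPF3B and in 35.7% of promoters, GGGCGG in all 3 genes and in 44.6%, and TGACGTCA in none of the 3 and in 1.98%. These are letter matches and carry no measurement of binding.

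Library totals ran from 6016999 to 14551820 counts, with a median of 8670883. Levels are given as CPM, the counts per 1000000 counts of a library whose size was scaled by TMM, and no comparison of level is made between the 3 genes, which differ in length. The targeted gene itself, UPF1, went from 106 ± 7.45 to 20.4 ± 0.916 CPM in CLIP (SD, 3 libraries per siRNA). In the other 7 lines its mean lay between 3260 CPM and 4819 CPM with either siRNA, above CLIP with siNT. With siUPF1 the means from the lowest were 3260 CPM in LECY, 3839 in F192E, 3909 in I757R and 4081 in IR-ER. E797R had 4262 CPM, WT 4515 and FE-ER 4819. With siNT the means were 3613 CPM in LECY, 3683 in F192E, 4011 in I757R and 3935 in IR-ER. E797R had 4302 CPM with siNT, WT 4059 and FE-ER 4405. The summed UPF1 RNA of these lines was thus not lowered by siUPF1 to the extent seen in CLIP. Whether siUPF1 was designed to spare the transgene is not given in the sources used here. Whether these levels bear on the response was not tested. Summed over 5 markers of 293 cells, the groups held 754 to 949 CPM, although NEFM, one of them, was as low as 0.598 CPM. The 5 fibroblast markers summed to 2.55 to 7.97 CPM and the 3 immune markers to 4.77 to 9.68 CPM, with CD3E at 0 in every library. In CLIP with siNT, VIM alone made up 568 of the 871 CPM of the 293 markers. There CD68 made up all 7.52 CPM of the immune markers, so single genes weigh heavily in these sums. Mitochondrial mRNA took 1.98% to 4.41% of counts.

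Depletion of UPF1 in CLIP cells was followed by a rise of all 3 genes, but not in every line with tagged UPF1. UPF3B rose 1.76-fold in CLIP, 1.71-fold in F192E and 1.78-fold in LECY. It did not pass the test in the other lines, and its siUPF1 mean was below its siNT mean in WT, IR-ER and E797R. UPF3A rose in 6 lines, WT among them, and UPF2 in 4. Over the 8 lines the log2 response ran from 0.13 to 0.70 for UPF2, from 0.22 to 0.63 for UPF3A and from −0.19 to 0.83 for UPF3B. The share of all genes called higher was 18.1% in CLIP, where 3 of the 3 genes were called. It was 11.8% in F192E and 15.8% in LECY, again with 3 of 3 called. It was 10.1% in FE-ER with UPF2 and UPF3A called, 8.43% in WT and 9.21% in IR-ER with UPF3A alone called, and 8.13% in I757R and 8.34% in E797R with 0 of 3 called by edgeR or DESeq2. At an unadjusted p under 0.05, 2 of the 3 genes in I757R and 1 in E797R would have passed.

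**Figure D1:**
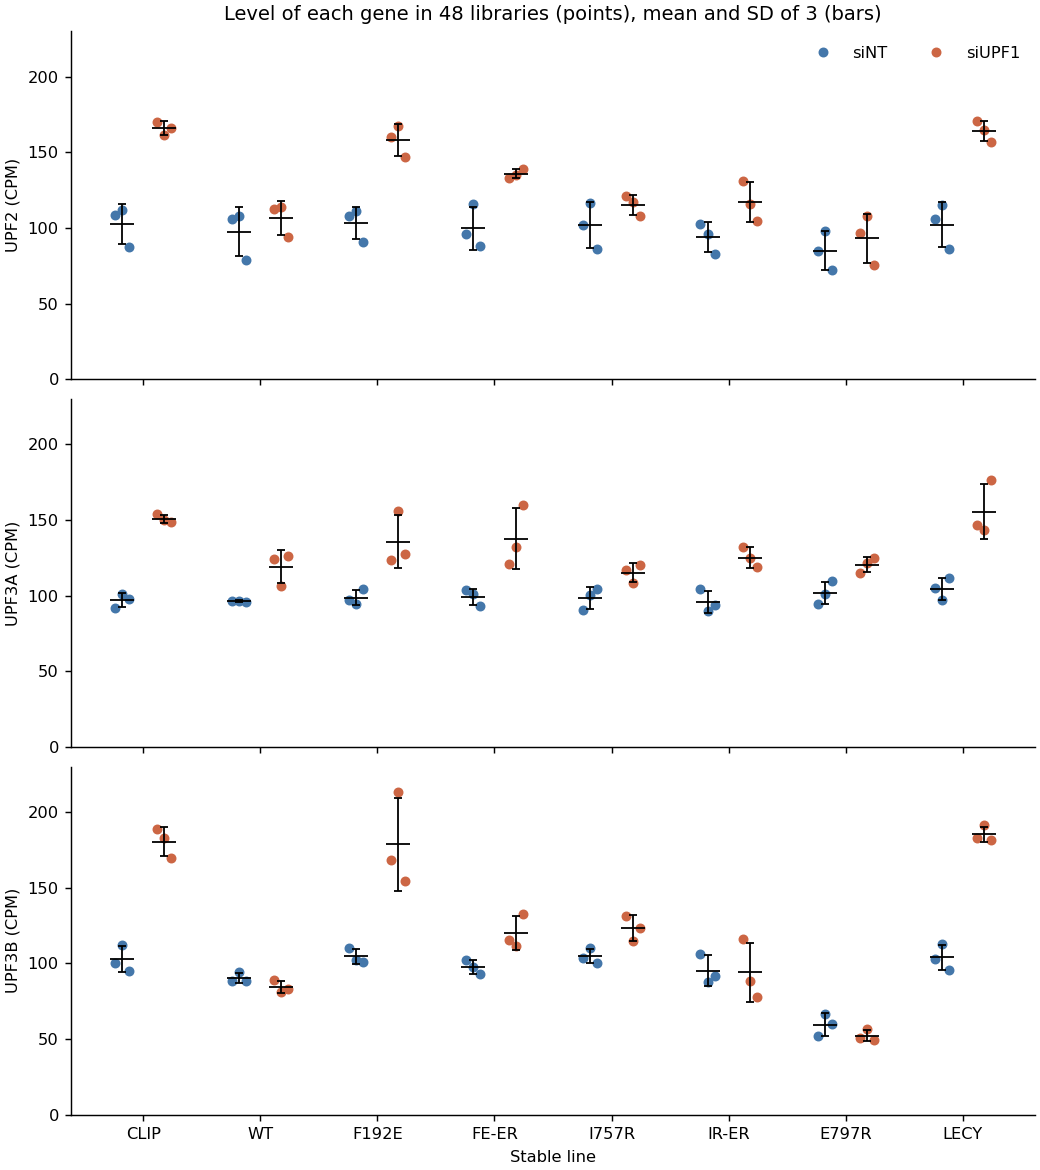
CPM of UPF2, UPF3A and UPF3B (y axes, from 0) in each of the 48 libraries (points) of the 8 stable lines (x axis), with siNT in blue and siUPF1 in red, and the mean and SD of 3 replicates as bars. With siUPF1 the lowest point of UPF3B in CLIP, F192E and LECY is 155 CPM and the highest in the other 5 lines is 133 CPM.

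UPF2, the scaffold, had 108, 112 and 87.6 CPM in the 3 CLIP libraries with siNT and 170, 162 and 166 CPM with siUPF1, so the groups did not overlap and the rise was 1.62-fold. On the log2 scale this was 0.70 (SE 0.13, adjusted p = 6.5e-05) by edgeR's quasi-likelihood test with Benjamini-Hochberg adjustment, which is the test meant by every adjusted p of a single gene here. In bulk RNA, a change in the share of cells that carry a transcript and a change in its amount per cell cannot be told apart, and the p-values measure the spread between these libraries. The share of all genes whose groups did not overlap is not given here, so lack of overlap is a description for all 3 genes.

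In LECY, UPF2 went from 106, 115 and 85.8 CPM to 170, 164 and 157 CPM, a log2 change of 0.68 (SE 0.13, adjusted p = 0.00012). In F192E it went from 108, 111 and 90.9 CPM to 160, 168 and 147 CPM, a change of 0.62 (SE 0.13, adjusted p = 0.000569). In both lines every siUPF1 library lay above every siNT library. In FE-ER the values were 96.0, 116 and 87.8 CPM and 133, 135 and 139 CPM, also without overlap, with a change of 0.45 (SE 0.13, adjusted p = 0.0139). The FE-ER call was the least firm of the 4, since it was lost without siNT replicate 1 (adjusted p = 0.0639), siNT replicate 3 (0.119) or siUPF1 replicate 3 (0.0513). IR-ER had 103, 96.2 and 83.0 CPM with siNT and 131, 116 and 104 CPM with siUPF1. These groups did not overlap, and the change of 0.32 (adjusted p = 0.105) passed once the replicate number entered the fit as a block, at 0.32 (adjusted p = 0.00258).

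The other lines gave smaller values for UPF2. WT cells had 106, 108 and 79.0 CPM and 112, 114 and 93.9 CPM, and the groups overlapped (log2 change 0.13, adjusted p = 0.593, 95% interval −0.14 to 0.40). I757R had 102, 117 and 86.3 CPM and 121, 117 and 108 CPM, with overlap as well (change 0.18, adjusted p = 0.413). E797R had 84.5, 97.9 and 72.3 CPM and 96.5, 108 and 75.7 CPM, the lowest means of the 8 lines with either siRNA (change 0.13, adjusted p = 0.591). Replicate 3 was the lowest library for UPF2 in 14 of the 16 groups, which was the case for UPF3A in 4 groups and for UPF3B in 11.

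UPF3A, the paralog, had a higher mean with siUPF1 in every line and passed the test in 6 of the 8. As a description, all 3 siUPF1 libraries lay above all 3 siNT libraries in each of the 8 lines. In CLIP it went from 92.0, 101 and 97.9 CPM to 154, 150 and 149 CPM, a 1.55-fold rise (log2 change 0.63, SE 0.09, adjusted p = 1.09e-06). LECY had 105, 97.4 and 112 CPM and 147, 144 and 176 CPM (change 0.57, SE 0.09, adjusted p = 8.83e-06). These were the largest rises of UPF3A, and its siNT means lay within 96.1 to 105 CPM in all 8 lines.

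In F192E, UPF3A had 97.4, 94.4 and 104 CPM with siNT and 124, 156 and 127 CPM with siUPF1 (change 0.46, adjusted p = 0.000339). In FE-ER it had 104, 101 and 93.1 CPM and 121, 132 and 160 CPM (change 0.47, adjusted p = 0.000282). In IR-ER it had 104, 90.1 and 93.9 CPM and 132, 125 and 119 CPM (change 0.38, adjusted p = 0.00352). All 3 lines passed the test, so UPF3A rose in IR-ER, where UPF3B did not.

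WT cells had 96.7, 96.5 and 95.7 CPM of UPF3A with siNT, the smallest spread of UPF3A in any group, and 124, 107 and 126 CPM with siUPF1 (change 0.31, SE 0.10, adjusted p = 0.0216). That call was lost without filtering of low counts (adjusted p = 0.133), with only the WT groups in the fit (0.134) and without siNT replicate 1 (0.0515), siNT replicate 2 (0.0698), siUPF1 replicate 1 (0.0763) or siUPF1 replicate 3 (0.0785). I757R had 90.7, 101 and 105 CPM and 117, 108 and 120 CPM (change 0.22, adjusted p = 0.103). E797R had 94.8, 101 and 109 CPM and 115, 122 and 125 CPM (change 0.25, adjusted p = 0.0715). With the replicate block, I757R at 0.23 (adjusted p = 0.0407) and E797R at 0.25 (adjusted p = 0.0269) passed too, and UPF3A was then called higher in 8 of 8 lines.

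The near copies of UPF3A were expressed at a few CPM at most. In CLIP, UPF3AP2 went from 1.14 ± 0.431 to 2.92 ± 0.823 CPM (SD, 3 libraries per siRNA), and its rise passed the test at 1.30 (adjusted p = 0.0161). UPF3AP1 had 0.458 ± 0.144 CPM and 0.896 ± 0.212 CPM, and UPF3AP3 3.10 ± 0.532 CPM and 2.93 ± 0.282 CPM, and neither was called (0.94, adjusted p = 0.263 and −0.06, adjusted p = 0.895). The division of reads between UPF3A and these copies was estimated in the counting and was not tested here.

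UPF3B, the paralog on the X chromosome, split the lines. In CLIP its 3 libraries had 101, 112 and 95.3 CPM with siNT, against 189, 183 and 170 CPM with siUPF1, a rise of 0.81 (SE 0.11, adjusted p = 1.6e-07) on the log2 scale. In LECY it had 103, 113 and 95.9 CPM and 183, 191 and 182 CPM, a 1.78-fold rise (log2 change 0.83, SE 0.11, adjusted p = 1.43e-07). In F192E it had 110, 103 and 101 CPM and 168, 214 and 155 CPM, a 1.71-fold rise (log2 change 0.77, SE 0.11, adjusted p = 1.03e-06). In these 3 lines the siUPF1 libraries lay far above the siNT libraries, with F192E replicate 2 the highest of all 48.

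FE-ER had 102, 97.5 and 93.2 CPM of UPF3B with siNT and 115, 112 and 133 CPM with siUPF1, without overlap. Its change of 0.30 (SE 0.11, adjusted p = 0.0539) missed the threshold, and passed it with the replicate block (0.30, adjusted p = 0.0144) and by DESeq2 (0.29, adjusted p = 0.0497). I757R had 104, 110 and 101 CPM and 132, 115 and 124 CPM, also without overlap, and its change of 0.24 (adjusted p = 0.146) was not called. These lines lay between the ones in which UPF3B rose and the ones without a higher mean.

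WT cells had 88.7, 94.3 and 88.2 CPM of UPF3B with siNT and 88.9, 81.1 and 83.2 CPM with siUPF1, and the change was −0.10 (adjusted p = 0.628) with a 95% interval of −0.32 to 0.13. IR-ER had 107, 87.5 and 91.9 CPM and 116, 88.4 and 77.9 CPM, with replicate 1 apart from the other two, and the change was −0.02 (adjusted p = 0.939). E797R had 52.2, 66.7 and 60.0 CPM and 50.7, 56.5 and 49.6 CPM, and the change was −0.19 (adjusted p = 0.289). All 3 pairs of groups overlapped, and the interval in WT ended below the lower bound of the CLIP interval (0.59 to 1.03).

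**Figure D2:**
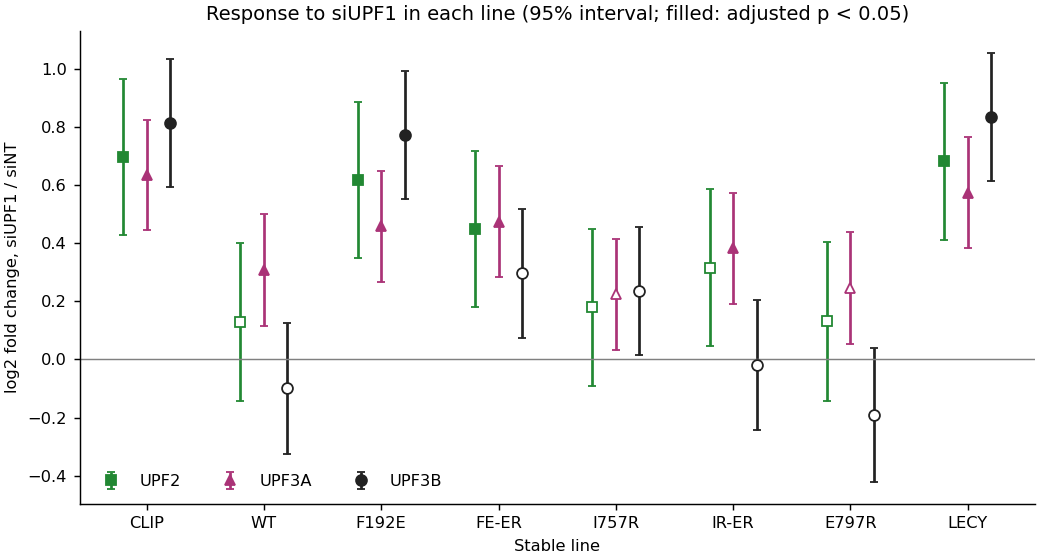
Log2 fold change of siUPF1 against siNT (y axis) in each stable line (x axis) for UPF2 (squares), UPF3A (triangles) and UPF3B (circles), with unadjusted 95% intervals, and filled symbols for an edgeR adjusted p under 0.05. UPF3A is above 0 in all 8 lines, from 0.22 to 0.63, whereas UPF3B runs from −0.19 to 0.83.

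Whether the response of a line differed from that of CLIP was tested directly, as a difference of log2 changes, and these 7 comparisons share the 6 CLIP libraries. The response of UPF3B was called lower than in CLIP in WT, IR-ER and I757R. The difference was −0.91 (SE 0.16, adjusted p = 0.000136) in WT, where 3.23% of all genes were called lower and UPF3B was the only one of the 3 genes called. In E797R 4.51% of genes were called lower. The difference of UPF3B there was −1.0, given with no p since the E797R libraries also served to single out UPF3B. It was −0.83 (SE 0.15, adjusted p = 0.000696) in IR-ER (2.41%) and −0.58 (SE 0.15, adjusted p = 0.0262) in I757R (2.41%). UPF3B alone was called in these lines too, and the I757R call was lost when any of 5 libraries was left out, with adjusted p from 0.0552 to 0.0826 (CLIP siNT replicates 1 and 3, I757R siNT replicate 2 and I757R siUPF1 replicates 2 and 3).

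In FE-ER the difference of UPF3B from CLIP was −0.52 (SE 0.15, adjusted p = 0.0921), where 1.2% of genes were called lower, and it passed with the block (−0.51, adjusted p = 0.0185) and by DESeq2 (−0.53, adjusted p = 0.033). In F192E it was −0.04 with a 95% interval of −0.35 to 0.27, and in LECY 0.02 with an interval of −0.29 to 0.33. Over all genes, 0.299% were called lower in F192E and 0% in LECY. In both lines 0 of the 3 genes were called by edgeR or DESeq2 and 0 had an unadjusted p under 0.05.

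UPF2 and UPF3A were called by edgeR in 0 of the 7 differences from CLIP. Unadjusted p was under 0.05 in 4 of the 7 for UPF2 and in 3 for UPF3A, and DESeq2 called 1 and 2 of them. For UPF2 the differences ran from −0.57 in WT (adjusted p = 0.0874) and −0.56 in E797R (0.069) to −0.01 in LECY. With the replicate block, UPF2 passed in WT at −0.57 (adjusted p = 0.000479), in E797R at −0.58 (adjusted p = 0.000342), in I757R at −0.52 (adjusted p = 0.00175) and in IR-ER at −0.39 (adjusted p = 0.0261). For UPF3A they ran from −0.41 in I757R (0.0949) and −0.39 in E797R (0.079) to −0.06 in LECY, and with the block I757R passed at −0.41 (adjusted p = 0.0259) and E797R at −0.39 (adjusted p = 0.0221). UPF2 also passed without the filter on low counts in E797R (−0.58, adjusted p = 0.0219), WT (−0.59, adjusted p = 0.0204) and I757R (−0.56, adjusted p = 0.0464). The WT value passed as well without WT siNT replicate 3 (adjusted p = 0.0313), and the E797R value without E797R siNT replicate 3 (0.0315) or siUPF1 replicate 2 (0.0287). All 14 values were negative, and whether they pass the threshold depended on these settings.

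The mutants were then read against WT, and these comparisons share the 6 WT libraries. The response of UPF3B was larger than in WT by 0.93 (SE 0.16, adjusted p = 0.000135) in LECY, where 2.76% of genes were called higher, and by 0.87 (SE 0.16, adjusted p = 0.0035) in F192E, where 0.18% were. The F192E difference did not pass with only its 4 groups in the fit (0.87, adjusted p = 0.121). The differences of UPF3B were 0.39 in FE-ER, 0.33 in I757R and 0.08 in IR-ER, and none of the 3 passed. UPF2 differed from WT by 0.55 (adjusted p = 0.114) in LECY and 0.49 (adjusted p = 0.862) in F192E, and both passed with the block (0.56, adjusted p = 0.000821 and 0.48, adjusted p = 0.0295). The LECY value also passed without the filter on low counts (0.56, adjusted p = 0.0467) and without WT siNT replicate 3 (0.68, adjusted p = 0.0449). UPF3A was called by edgeR or DESeq2 in 0 of the 5 tested lines, with 0 unadjusted p under 0.05, and its value of largest size was 0.27 (adjusted p = 0.383) in LECY. In E797R, given without a test, the differences from WT were 0.00 for UPF2, −0.06 for UPF3A and −0.09 for UPF3B.

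With siNT, where the cells' own UPF1 was not targeted, the other lines lay close to each other and above E797R in UPF3B. The siNT means of UPF3B ran from 90.4 ± 3.41 CPM in WT to 105 ± 4.84 CPM in I757R (SD, n = 3 each), and the libraries of neighbours in that order overlapped. The WT libraries lay below those of CLIP, F192E, I757R and LECY without overlap, and overlapped those of FE-ER and IR-ER. Against CLIP, WT gave log2 differences of −0.07 for UPF2, −0.01 for UPF3A and −0.18 for UPF3B, and 0 of the 3 were called (0.012% of all genes were), with 0 unadjusted p under 0.05. The 5 tested mutants against WT gave 0 calls among the 15 values of the 3 genes by edgeR or DESeq2 and 0 unadjusted p under 0.05, in comparisons where at most 0.00599% of genes were called. UPF3B there ran from 0.08 in IR-ER to 0.21 in I757R. The mean of the 7 lines with tagged UPF1 against CLIP gave −0.07 for UPF2, 0.03 for UPF3A and −0.15 for UPF3B, with 0 of the 3 called (0.012% of genes were) and 0 unadjusted p under 0.05.

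With siUPF1 the levels of UPF3B ordered the lines more widely. From the lowest mean, E797R had 52.3 ± 3.69 CPM, WT 84.4 ± 4.02 CPM, IR-ER 94.1 ± 19.6 CPM and FE-ER 120 ± 11.2 CPM. I757R followed at 123 ± 8.39 CPM, then F192E at 179 ± 30.9 CPM, CLIP at 180 ± 9.63 CPM and LECY at 185 ± 5.10 CPM. The libraries of E797R did not overlap those of WT, and those of I757R did not overlap those of F192E, while WT and IR-ER, IR-ER and FE-ER, FE-ER and I757R, and the 3 highest lines overlapped with their neighbours.

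Against CLIP with siUPF1, WT was lower in all 3 genes, where 8.61% of all genes were called lower. The difference was −1.10 (SE 0.11, adjusted p = 9.79e-10) for UPF3B, −0.64 (SE 0.13, adjusted p = 0.000585) for UPF2 and −0.34 (SE 0.09, adjusted p = 0.00998) for UPF3A. The UPF3A call was lost with only these 2 groups in the fit (−0.34, adjusted p = 0.0608) and without WT siUPF1 replicate 2 (−0.26, adjusted p = 0.096). LECY was higher than WT in all 3 genes (8.18% of genes called higher), by 1.13 (adjusted p = 5.41e-10) for UPF3B, 0.62 (adjusted p = 0.000968) for UPF2 and 0.39 (adjusted p = 0.00353) for UPF3A. The UPF3A call in LECY was lost with only these 2 groups in the fit (0.39, adjusted p = 0.075) and without LECY siUPF1 replicate 3 (0.30, adjusted p = 0.051).

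F192E was higher than WT in UPF3B by 1.08 (adjusted p = 2.17e-08) and in UPF2 by 0.57 (adjusted p = 0.0122), where 1.51% of genes were called higher, and UPF3A differed by 0.19 (adjusted p = 0.427). The UPF2 call was lost without F192E siUPF1 replicate 1 (adjusted p = 0.057) or 2 (0.0769) or WT siUPF1 replicate 3 (0.105). UPF3B alone was called in FE-ER, by 0.51 (adjusted p = 0.02) with 0.383% of genes called higher, and in I757R, by 0.55 (adjusted p = 0.0222) with 0.0719%. Each of these calls was lost without WT siUPF1 replicate 2 or 3 or the mutant's siUPF1 replicate 1 or 3, with adjusted p from 0.0579 to 0.238 in FE-ER and from 0.103 to 0.252 in I757R. They were also lost with only the compared groups in the fit, at 0.178 and 0.308. UPF2 in FE-ER differed by 0.35 (adjusted p = 0.368) and passed with the block (0.36, adjusted p = 0.00726). In IR-ER 0 of the 3 genes were called by edgeR or DESeq2 and 0 had an unadjusted p under 0.05, 0.174% of genes were called higher, and UPF3B differed by 0.16 (adjusted p = 0.785).

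The values that singled out UPF3B in E797R were 59.6 ± 7.29 CPM against 90.4 ± 3.41 CPM in WT with siNT, a log2 difference of −0.60, and −0.69 with siUPF1. In those contrasts edgeR called 0.018% and 0.0479% of all genes, and nothing is read from that. For UPF3B, all 6 E797R libraries lay below every library of the other lines. UPF2 differed by −0.20 and −0.20 in the same contrasts and UPF3A by 0.08 and 0.02. The neighbours of UPF3B on the X chromosome are given for comparison. RPL39, a ribosomal protein gene 13668 bases away, differed by −0.07 and 0.00, and RNF113A, 17477 bases away on the other side, by 0.26 and −0.10.

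In the CLIP knockdown the nearest tested neighbours of the 3 genes were not called higher. RPL39 gave −0.30 (adjusted p = 0.131) and RNF113A 0.27 (adjusted p = 0.233) beside UPF3B, and CDC16 gave −0.04 (adjusted p = 0.816) and CHAMP1 −0.28 (adjusted p = 0.0728) beside UPF3A. Beside UPF2, DHTKD1 fell by 0.64 on the log2 scale (adjusted p = 0.015) and PROSER2 gave 0.28 (adjusted p = 0.0974). In the other 7 lines DHTKD1 fell as well, by 0.71 to 0.80, and PROSER2 rose in F192E (0.36, adjusted p = 0.0442), where UPF2 rose, and in IR-ER (0.44, adjusted p = 0.0198), where UPF2 was not called. The neighbours of UPF3A and UPF3B were called in none of the 8 lines.

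The ratio of UPF3B to UPF3A counts within a library needs no scaling between libraries, and a difference of the ratio between groups does not depend on gene length. It moved in opposite directions between lines. In WT the ratio ran from 0.917 to 0.977 with siNT and from 0.659 to 0.761 with siUPF1, a log2 difference of −0.40 ± 0.115 (SD of the difference, n = 3 each). In IR-ER the difference was −0.42 ± 0.221, in E797R −0.43 ± 0.190 and in FE-ER −0.17 ± 0.116. The ratio was thus lower with siUPF1 in these 4 lines, without overlap between the siRNAs.

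In CLIP the ratio ran from 0.973 to 1.11 with siNT and from 1.14 to 1.23 with siUPF1, a log2 difference of 0.18 ± 0.118. In F192E the difference was 0.31 ± 0.150, also without overlap, and in LECY 0.27 ± 0.290, with overlap. I757R gave 0.01 ± 0.146. Taken within pairs of the same replicate number, the LECY differences ran from 0.20 to 0.34 (SD 0.0710 over 3 pairs), so all 3 pairs were higher with siUPF1, as in CLIP (0.14 to 0.23) and F192E (0.27 to 0.33). All 3 pairs were lower in WT, FE-ER, IR-ER and E797R, and I757R had 1 pair higher and 2 lower. The exact two-sided permutation test gave p = 0.1 in the 6 lines without overlap, 0.2 in LECY and 1 in I757R, and 0.1 is the smallest p that 3 against 3 allows (0.133 after Benjamini-Hochberg adjustment over the 8 lines). The exact paired permutation test gave p = 0.25, the smallest that 3 pairs allow, in the 7 lines other than I757R, where it gave 1.

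**Figure D3:**
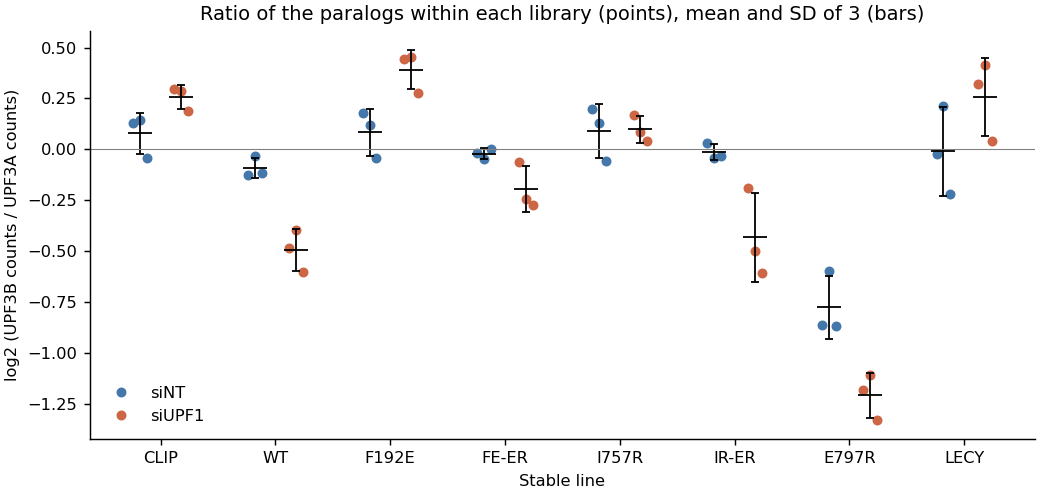
Log2 ratio of UPF3B to UPF3A counts (y axis) in each library (points) by stable line (x axis) and siRNA, siNT in blue and siUPF1 in red, with the mean and SD of 3 replicates as bars. From siNT to siUPF1 the mean goes down by 0.40 in WT, 0.42 in IR-ER and 0.43 in E797R and is 0.18 higher in CLIP, 0.27 higher in LECY and 0.31 higher in F192E.

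Of 14 NMD factors other than these 3 genes, UPF1 included, 5 rose and 2 fell in the CLIP knockdown, with a median log2 change of −0.02 beside −0.03 over all genes tested. SMG1, the kinase that phosphorylates UPF1, rose by 1.55 (SE 0.09, adjusted p = 9.03e-17), but it has near-identical pseudogene copies that could share its reads. The decay adaptor SMG5 rose by 0.72 (adjusted p = 8.92e-05) and the endonuclease SMG6 by 0.57 (adjusted p = 3.77e-05). SMG9, a subunit of the SMG1 complex, rose by 0.58 (adjusted p = 0.000265) and PNRC2, a decapping coactivator, by 0.42 (adjusted p = 0.00408). UPF1, the siRNA target, fell by 2.37 (adjusted p = 2.1e-17), and RUVBL1, an ATPase, fell by 0.62 (adjusted p = 1.08e-08). With the replicate block 4 rather than 2 of the 14 fell.

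The 5 factors that rose in CLIP were followed by line as well. They were picked by their calls in CLIP in these data, so a lower number in another line follows in part from that choice. In LECY 5 of the 5 rose, beside 15.8% of all genes called higher. In FE-ER 3 rose (10.1%), in F192E 2 (11.8%), in IR-ER 1 (9.21%), in I757R 1 (8.13%), in E797R 1 (8.34%) and in WT 0 (8.43%). In WT, SMG9 fell (−0.40, adjusted p = 0.0265), while SMG1 was at 0.14. In E797R, SMG5 (−0.47, adjusted p = 0.0192), SMG6 (−0.38, adjusted p = 0.0114) and SMG9 (−0.43, adjusted p = 0.0146) fell, and PNRC2 rose (0.36, adjusted p = 0.0275). UPF3A was called in WT, where SMG1 was not, and the difference between these genes was not tested.

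Of all 14 factors, the numbers that rose and fell were 0 and 3 in WT (median −0.03), 2 and 1 in F192E (−0.04), 3 and 1 in FE-ER (−0.08), 1 and 1 in I757R (−0.10), 1 and 1 in IR-ER (−0.02), 1 and 5 in E797R (−0.15), and 5 and 2 in LECY (0.01). The median over all genes tested lay between −0.01 and 0.02 in these lines. The share of all genes called higher is given above, and the share called lower was 15.6% in CLIP, 13.6% in LECY, 10.1% in F192E and 8.52% in FE-ER. It was 7.8% in IR-ER, 7.79% in I757R, 7.73% in E797R and 6.98% in WT. With the block the numbers that rose became 1 in WT, 4 in F192E, 2 in IR-ER and 2 in E797R, and those that fell 3 in F192E, 3 in FE-ER, 2 in I757R and 2 in IR-ER. Of 7 genes of the exon junction complex and its partners, RBM8A, a core subunit, rose in CLIP (0.42, adjusted p = 0.0177) and 0 passed in each other line.

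**Figure D4:**
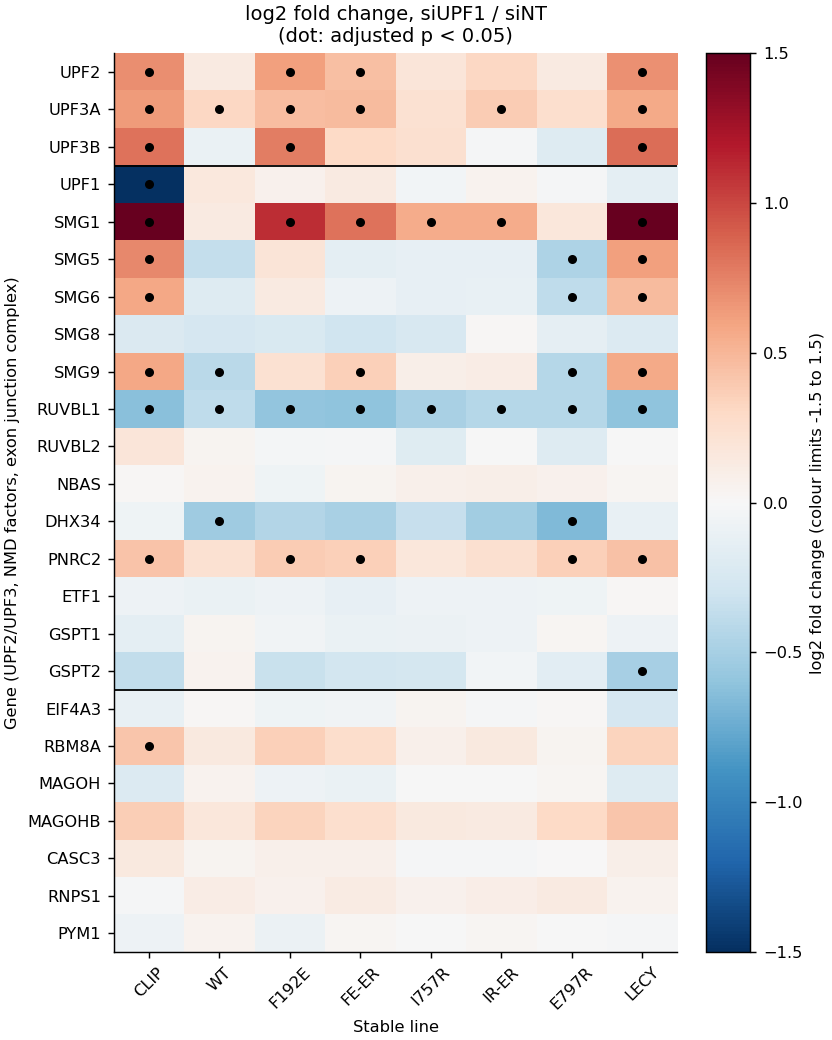
Log2 fold change of siUPF1 against siNT (colour, limits −1.5 to 1.5) for UPF2, UPF3A and UPF3B (top), 14 other NMD factors (middle) and 7 exon junction complex genes (bottom) in the 8 stable lines (columns), with a dot for an edgeR adjusted p under 0.05. The CLIP and LECY columns hold dots at all 3 top genes and at 5 NMD factors that rose.

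Across the 16 group means of log2 CPM, the pattern of UPF2 correlated with that of UPF3A at r = 0.879 and with that of UPF3B at 0.886, and the patterns of the paralogs correlated with each other at 0.577. These are descriptions over 16 points with no p, and all genes share the libraries behind a point and their depth. Among 10403 genes with a mean of at least 10 CPM, the patterns most like that of UPF2 were those of NFKBIB (r = 0.987), GABARAPL1 (0.977) and CCDC137 (0.976). For UPF3A they were TRNT1 (0.989), SCMH1 (0.989) and CNNM1 (0.982). For UPF3B they were ARMH3 (0.952), MED10 (0.949) and CSNK2A2 (0.945). ARMH3 and MED10 had log2 changes of 0.62 and 0.77 in the CLIP knockdown and −0.23 and −0.16 in WT, while TRNT1 had 0.83 and 0.47.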

How the data were processed

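RNA of 48 libraries from 8 stable lines, each with siNT or siUPF1 in 3 replicates that the series' design text calls biological, was read from 1 deposited table. It holds RSEM expected counts per gene, per the file headers and the submitters' processing notes, which also name cutadapt, STAR, DESeq2 and hg38 without versions or roles. The authors deposited these expected counts unnormalized, and 9.16% of the values are not whole. Annotation release and strand setting are not given in the sources used here, so reads of overlapping or antisense genes cannot be told apart. Gene positions came from GENCODE 29, matched by Ensembl ID for 58552 of 58825 IDs; 47456 of these had the same ID version, so the counting used another release. A read that matches more than 1 gene is shared out by RSEM's model. UPF3AP1, UPF3AP2 and UPF3AP3 are the other genes in the table whose names begin with UPF2 or UPF3.

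Counts were rounded and filtered with filterByExpr (minimum count 10), and all 48 libraries entered 1 fit of 16 groups (edgeR 4.0.16 under R 4.3.3, normalized by TMM with factors of 0.951 to 1.03, robust quasi-likelihood test, Benjamini-Hochberg adjustment over the 16697 genes tested, two-sided, called at an adjusted p under 0.05). Depth was 6016999 to 14551820 counts, and a member had 337 to 2434 counts in a library. Ratios were compared by exact two-sided permutation tests, unpaired and, as the block, within pairs. On simulated counts for the CLIP knockdown (16452 genes) the test recovered 47% of 1.5-fold and 69% of 2-fold changes, with 8 false calls. The simulation changed 100 genes at each fold, whereas 3017 genes were called higher and 2605 lower in CLIP itself. The adjustment depends on how many genes change, so these shares do not carry over to the real test. Libraries with the same replicate number deviated together in every line (r of 0.115 to 0.469 between siNT and siUPF1 across genes), so the numbers were taken to pair them in the ratios. In the fits of genes the block instead added a shift per replicate number that all lines share. That sharing between lines was not tested, and this fit is given beside results it changes. No pair of columns was identical. Alternatives were the block, DESeq2 1.42.0, its size factors in edgeR, no filter, unrounded counts, only the compared groups fitted, 0.5 added to both counts of the ratio, and each library left out.

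Genes named in the text were the members, other genes named UPF2 or UPF3, UPF1, members of the pathway lists called in the CLIP knockdown, the nearest genes, and for each member the 3 genes most like it by Pearson r. A further NMD factor of the list is not reported here. The 3 genes, the lists and the comparisons were chosen with earlier results of these data known. E797R against WT, which the choice used, was not tested. Promoter stretches are from RefSeq. RNU6-1095P (inside UPF2), PROSER2-AS1 (beside it) and AL160396.2 and CLCP2 (beside UPF3A) did not pass the filter, so the nearest tested genes were used there.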

Additional observations from a re-analysis of the deposited data

Results flagged for a closer look

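The response of UPF3B to siUPF1 differed between lines by edgeR's test of the difference itself, with Benjamini-Hochberg adjustment over all genes. Relative to CLIP, the log2 response was lower by −0.91 in WT (adjusted p = 0.000136), −0.83 in IR-ER (0.000696) and −0.58 in I757R (0.0262). The I757R call was lost when any of 5 libraries was left out. Relative to WT, the response was higher by 0.93 in LECY (0.000135) and by 0.87 in F192E (0.0035). In all of these lines but F192E and LECY the siUPF1 libraries of UPF3B lay below those of CLIP. The E797R libraries also served to choose UPF3B, so the E797R difference from CLIP, −1.0, is given with no p and supports nothing further. In the same fit no such difference passed for UPF2 or UPF3A, although some did with the replicate block, without the filter on low counts, by DESeq2 or without 1 library.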

How the results depend on the processing

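Each of the 108 log2 values of the 3 genes kept its side of the threshold with DESeq2 size factors in edgeR and with unrounded counts. Direction was checked only for values called in either fit. Of the 108, 103 kept their side by DESeq2 and 103 without a filter on low counts, and 102 did so with only the compared groups fitted. With the replicate number as a block, 102 of 116 values did so, the 8 ratio differences included, and 14 passed the threshold that had not; the block changed no other call. No value with a call reversed. The cause of these changes was not tested. In E797R against WT only values, with no test, were compared. These and the ratio differences counted as kept if they moved by no more than the SD of the difference.

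The replicate block fits a shift per replicate number that all lines share, which is not a pairing within a line. With it, these log2 values passed by edgeR (adjusted p in brackets). For UPF2 these were the IR-ER response 0.32 (0.00258) and the differences from CLIP −0.57 (0.000479) in WT, −0.58 (0.000342) in E797R, −0.52 (0.00175) in I757R and −0.39 (0.0261) in IR-ER. UPF2 also passed in F192E minus WT, 0.48 (0.0295), LECY minus WT, 0.56 (0.000821), and FE-ER against WT with siUPF1, 0.36 (0.00726). For UPF3A they were the responses 0.23 (0.0407) in I757R and 0.25 (0.0269) in E797R and the differences from CLIP −0.41 (0.0259) and −0.39 (0.0221) in these lines. For UPF3B they were the FE-ER response 0.30 (0.0144) and its difference from CLIP −0.51 (0.0185). DESeq2 called UPF3B in FE-ER, 0.29 (0.0497), and in FE-ER minus CLIP, −0.53 (0.033), UPF3A in I757R minus CLIP, −0.42 (0.037), and E797R minus CLIP, −0.40 (0.0342), and UPF2 in E797R minus CLIP, −0.58 (0.0343).

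Without a filter on low counts UPF3A in WT was lost, 0.29 (0.133), and UPF2 passed in WT minus CLIP, −0.59 (0.0204), I757R minus CLIP, −0.56 (0.0464), E797R minus CLIP, −0.58 (0.0219), and LECY minus WT, 0.56 (0.0467). With only the compared groups fitted, which leaves fewer libraries to estimate the spread, these were lost: UPF3A in WT, 0.30 (0.134), WT against CLIP, −0.34 (0.0608), and LECY against WT, 0.39 (0.075), and UPF3B in F192E minus WT, 0.87 (0.121), FE-ER against WT, 0.51 (0.178), and I757R against WT, 0.55 (0.308).

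Leaving out 1 library at a time changed 29 calls among 984 values. The ranges of the log2 values were 0.27 to 0.39 for UPF3A in WT and 0.36 to 0.56 for UPF2 in FE-ER. For differences of response they were −0.70 to −0.46 for UPF2 in WT minus CLIP, −0.70 to −0.45 for UPF2 in E797R minus CLIP, −0.66 to −0.53 for UPF3B in I757R minus CLIP and 0.44 to 0.68 for UPF2 in LECY minus WT. With siUPF1 they were −0.38 to −0.26 for UPF3A in WT against CLIP, 0.47 to 0.62 for UPF2 in F192E against WT, 0.42 to 0.55 and 0.49 to 0.59 for UPF3B in FE-ER and I757R against WT, and 0.30 to 0.45 for UPF3A in LECY against WT. UPF2 passed without WT siNT replicate 3 in WT minus CLIP (adjusted p = 0.0313) and LECY minus WT (0.0449), and in E797R minus CLIP without E797R siNT replicate 3 (0.0315) or siUPF1 replicate 2 (0.0287).

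The counts of all genes called moved more. With the block they went from 2572 to 4356 in WT, 3648 to 5773 in F192E, 3110 to 5192 in FE-ER, 2682 to 4583 in E797R, 2839 to 4715 in IR-ER and 2658 to 4756 in I757R. Relative to CLIP they went from 668 to 1594 in WT, 52 to 243 in F192E, 221 to 631 in FE-ER, 1004 to 2383 in E797R, 474 to 1217 in IR-ER and 462 to 1208 in I757R, and relative to WT from 30 to 94 in F192E and 553 to 1412 in LECY. With siUPF1 they went from 2347 to 4236 in WT against CLIP, and against WT from 304 to 1167 in F192E, 71 to 436 in FE-ER, 13 to 89 in I757R, 41 to 332 in IR-ER and 2258 to 4074 in LECY. With only the compared groups they were 1204, 1344 and 1394 in WT, I757R and E797R, 359, 19, 142, 290, 299 and 651 in WT, F192E, FE-ER, I757R, IR-ER and E797R minus CLIP, 2 and 218 in F192E and LECY minus WT, and with siUPF1 1421 in WT against CLIP and 85, 8, 0, 0 and 1016 in F192E, FE-ER, I757R, IR-ER and LECY against WT. DESeq2 gave 124 and 346 in F192E and FE-ER minus CLIP, and 135, 31 and 82 in FE-ER, I757R and IR-ER against WT with siUPF1, where 148, 103 and 196 were called without the filter. Without it the counts were also 131 in F192E and 24 in LECY minus CLIP, 87 in F192E and 18 to 34 in 4 other lines minus WT, and 24 to 55 with siNT.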
